A study of Drosophila melanogaster with 6 samples.

Results

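The peaks described here lie on the assembled heterochromatin sequences of the fly genome build dm3, the pieces whose names end in Het. They were chosen by sequence name alone. They number 424 of the 13569 peaks in both deposited lists. Of these, 316 belong to ROW (3.60% of its list) and 108 to BEAF-32 (2.26% of its list). The peaks fall on 2LHet, 2RHet, 3LHet, 3RHet and XHet, and neither list used here has a peak on YHet. The study mapped both proteins by chromatin immunoprecipitation and sequencing in unperturbed S2 cells, a Drosophila melanogaster line of embryonic origin. Sonicated nuclei were immunoprecipitated with an antibody against ROW (3 samples) or BEAF-32 (3 samples). Each antibody has 1 peak list for its 3 samples, so no value per sample and no spread between replicates can be given, and the read total of each sample is unknown. The labels do not say whether the samples of an antibody came from separate cultures, and they do not name a control library. According to the series title, the study asked how both proteins work together at distant genes.

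Heterochromatin is the compact, repeat-rich chromatin around centromeres and on most of the Y chromosome. In flies it carries methylated histone H3 lysine 9 and the protein HP1a, and it holds fewer genes than the euchromatic arms. ROW is a zinc-finger protein found in a complex with HP1c, a relative of HP1a that sits mainly at active euchromatic promoters. BEAF-32, an insulator protein, binds near the promoters of many housekeeping genes and at borders between chromatin domains. The Het pieces are the part of heterochromatin that could be assembled and assigned to a chromosome arm. Repeats limit how many reads can be placed on them, and how repeated reads were handled was not stated. The sequence and the annotation of dm3 were not used here, so peaks are given by position and not by gene or motif.

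The arms 2L, 3L and 3R served as the reference, with 5115 ROW and 2767 BEAF-32 peaks. Fold enrichment below is the deposited ratio of reads at the peak's highest point, the summit, to local background. It was compared only within a list. The deposited fold enrichment and −log10 p of every peak fitted a whole number of reads over the summit and a local background in reads, as the peak caller defines them. This held for all 8788 ROW and all 4781 BEAF-32 peaks within 0.001 of the −log10 p. The depth behind each peak was taken from these numbers. The lowest background was 22.5 reads for ROW and 16.4 for BEAF-32, and 35.5% and 36.7% of peaks lay within 0.05 reads of it. This lowest value is called the genome-wide level below, and a background more than 0.05 reads above it is called raised. Differences between Het and reference shares were tested with two-sided Fisher's exact tests, adjusted over 10 tests by the Benjamini-Hochberg method. Where a single result was recalculated at another limit or strength, it replaced its main result among the 10 before adjustment. No p-value was adjusted over the settings tried. These tests count peaks and not samples, and neighbouring peaks are not independent, so their p-values can be too small.

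Het sequences carried fewer peaks than the arms for the length spanned, and the deficit was larger for BEAF-32. From first to last peak the Het pieces spanned 8.56 Mb, with 36.9 ROW and 12.6 BEAF-32 peaks per Mb. The reference arms had 67.9 and 36.7 per Mb. Unassembled gaps inside the pieces were not taken into account, so these densities are a description. ROW made up 74.5% of the Het peaks (95% Wilson interval 70.2 to 78.4) and 64.9% of the reference peaks. This difference of 9.63 percentage points (5.15 to 13.7) passed Fisher's exact test (adjusted p = 0.000103). That is 2.93 ROW peaks for each BEAF-32 peak, against 1.85 on the reference arms. On the unplaced scaffolds U and Uextra the ROW share was 71.1% (66.8 to 75.1), an interval that overlaps that of Het. On chromosome 4 it was 64.3% (57.7 to 70.4), and neither was tested against Het. Among the Het pieces the ratio was highest on 3RHet, with 67 ROW and 16 BEAF-32 peaks. It was 150 to 51 on 2RHet, 76 to 28 on 3LHet and 19 to 9 on 2LHet. XHet, where the peaks span the shortest stretch, had 4 of each. The 95% interval of the ROW share overlapped those of the single arms for 2LHet (49.3 to 82.1) and XHet (21.5 to 78.5). It also did so for 3LHet (63.8 to 80.7). For 2RHet (68.2 to 80.1) and 3RHet (71.0 to 87.8) it lay above all 3 arms.

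Peaks were concentrated in parts of the long pieces. The first 500 kb of 2RHet held 68 of its 150 ROW peaks (45.3%) and 31 of its 51 BEAF-32 peaks (60.8%). From 2000001 to 2500000 the same sequence had 4 ROW peaks and no BEAF-32 peak. On 3LHet the window from 2000001 to 2500000 held 34 of the 76 ROW peaks of that piece and 14 of its 28 BEAF-32 peaks. On 3RHet the window from 1500001 to 2000000 held 25 of 67 ROW and 9 of 16 BEAF-32 peaks. The dense windows were thus shared by both lists, while the stretches at some ends were not. On 3RHet the last BEAF-32 peak ended at 1954264, and 19 ROW peaks followed it between 2000017 and 2516342. All 19 were weak, with fold enrichments of 1.66 to 2.97 and 42 to 69 reads at the summit. On 3LHet 8 ROW peaks of 1.91- to 3.48-fold preceded the first BEAF-32 peak, which began at 458323. The longest stretch without a peak of either protein ran over 376 kb on 2RHet, from 1898171 to 2274632. Stretches of more than 100 kb without peaks numbered 9 on 3RHet, 7 on 2RHet, 6 on 3LHet, 1 on XHet and 0 on 2LHet. Windows and stretches are given for Het only, so they are not shown to be particular to it. The longest distance between neighbouring ROW summits was 376839 bp on 2RHet. On the arms it was 462231 bp (2L), 371609 bp (3L) and 324096 bp (3R). Unassembled sequence inside the stretches was not taken into account.

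Peaks of both proteins were weaker on Het sequences than on the arms. The median fold enrichment of ROW was 2.25 (interquartile range 1.997 to 3.02) on Het and 4.12 (2.63 to 8.09) on the reference arms. For BEAF-32 it was 2.64 (2.26 to 4.37) against 7.42 (3.68 to 18.3). Of the Het ROW peaks 55 of 316, or 17.4% (13.6 to 22.0), reached 4-fold, while 51.5% of the reference peaks did. The difference was −34.1 percentage points (−38.1 to −29.3, Fisher's exact adjusted p = 2.789e-33). Of the Het BEAF-32 peaks 12 of 108, or 11.1% (6.47 to 18.4), reached 8-fold, while 48.2% of the reference peaks did. Here the difference was −37.1 percentage points (−42.1 to −29.5, Fisher's exact adjusted p = 4.130e-15). None of the 316 Het ROW peaks reached 16-fold (upper end of the 95% Wilson interval 1.20%), against 5.04% of reference peaks. Such peaks were 4 of 108 for BEAF-32 on Het and 30.5% on the arms. The median Het peak stood at the 15.5th percentile of the whole ROW list and at the 10.7th of the whole BEAF-32 list, counted from the weakest.

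**Figure D1:**
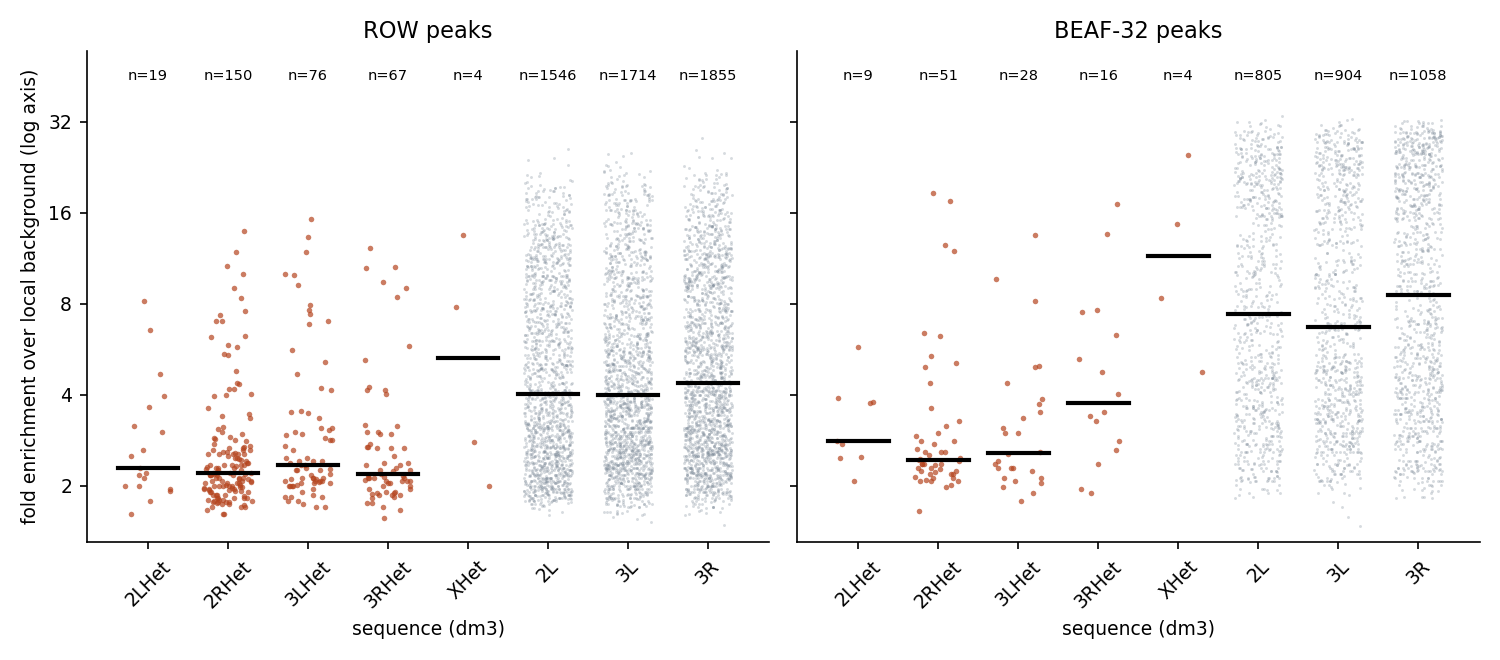
Fold enrichment over local background (log axis) of every ROW peak (left) and BEAF-32 peak (right), by sequence, with Het sequences in red and the arms 2L, 3L and 3R in grey. Bars mark medians: on 4 of the 5 Het sequences they lie at 2.19 to 2.34 for ROW and 2.44 to 3.77 for BEAF-32, below every arm, whereas XHet with its 4 peaks per list lies higher.

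The low level was common to the Het pieces other than XHet. Median ROW enrichment was 2.29 on 2LHet, 2.21 on 2RHet, 2.34 on 3LHet and 2.19 on 3RHet. Median BEAF-32 enrichment was 2.82 on 2LHet, 2.44 on 2RHet, 2.57 on 3LHet and 3.77 on 3RHet. XHet stood apart with medians of 5.31 for ROW and 11.5 for BEAF-32, each from 4 peaks. The strongest Het ROW peak lay on 3LHet from 2242981 to 2243808. It had a fold enrichment of 15.28 from 1212 summit reads over a background of 78.4, and a BEAF-32 summit lay 55 bp away. It ranked 491st in the whole ROW list. Next came ROW peaks on 2RHet from 337582 to 338456 (13.98-fold), on XHet from 84008 to 84967 (13.52-fold) and on 3LHet from 458343 to 459779 (13.32-fold). The fifth was on 3RHet from 1823693 to 1824933 (12.21-fold). The strongest ROW peak of 2LHet, from 32721 to 33665, reached 8.21-fold. All 6 of these ROW peaks overlapped a BEAF-32 peak.

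The strongest Het BEAF-32 peak lay on XHet from 84342 to 85074, with a fold enrichment of 24.82 from 3267 summit reads. It was followed by peaks on 2RHet from 390404 to 391178 (18.57-fold) and from 3178309 to 3179893 (17.56-fold). Then came one on 3RHet from 1934889 to 1935495 (17.12-fold) and one on XHet from 75952 to 76597 (14.67-fold). The strongest BEAF-32 peak was 13.55-fold on 3LHet, from 594132 to 594800, and 5.75-fold on 2LHet, from 32684 to 33380. Each of these 7 overlapped a ROW peak. The few XHet sites are given in full, a choice made after their values were seen. From 61098 to 61693 BEAF-32 was 8.34-fold and ROW 2.80-fold, and from 75952 to 76597 BEAF-32 was 14.67-fold with ROW at 7.83-fold. The strongest site had BEAF-32 at 24.82-fold and ROW at 13.52-fold. The remaining BEAF-32 peak, from 79680 to 80121 (4.76-fold), and the remaining ROW peak, from 189774 to 190070 (1.997-fold), each stood alone.

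Taken over all strengths, both the reads at the summit and the local background were lower at Het peaks. The median Het ROW peak had 62 summit reads and the median reference peak 143. For BEAF-32 the medians were 48.5 and 203 reads. Fewer than 100 reads lay under 245 of 316 Het ROW peaks (77.5%) and 84 of 108 Het BEAF-32 peaks (77.8%). On the reference arms the shares were 37.8% for ROW and 34.8% for BEAF-32. Most Het peaks therefore rest on few reads, and their fold enrichments are less precise than those on the arms. Local background exceeded the genome-wide level at 147 of 316 Het ROW peaks, or 46.5% (41.1 to 52.0), and at 68.3% of reference peaks. It did so at 44 of 108 Het BEAF-32 peaks, or 40.7% (31.9 to 50.2), and at 64.6% of reference peaks. These differences of −21.7 (−27.3 to −16.1) and −23.8 (−32.8 to −14.2) percentage points were tested after the data were seen. Fisher's exact p adjusted over these 2 tests was 2.725e-14 for ROW and 1.057e-06 for BEAF-32. Among BEAF-32 peaks with −log10 q of at least 10 the difference was −9.47 percentage points and did not pass (43 Het peaks, Fisher's exact adjusted p = 0.183).

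**Figure D2:**
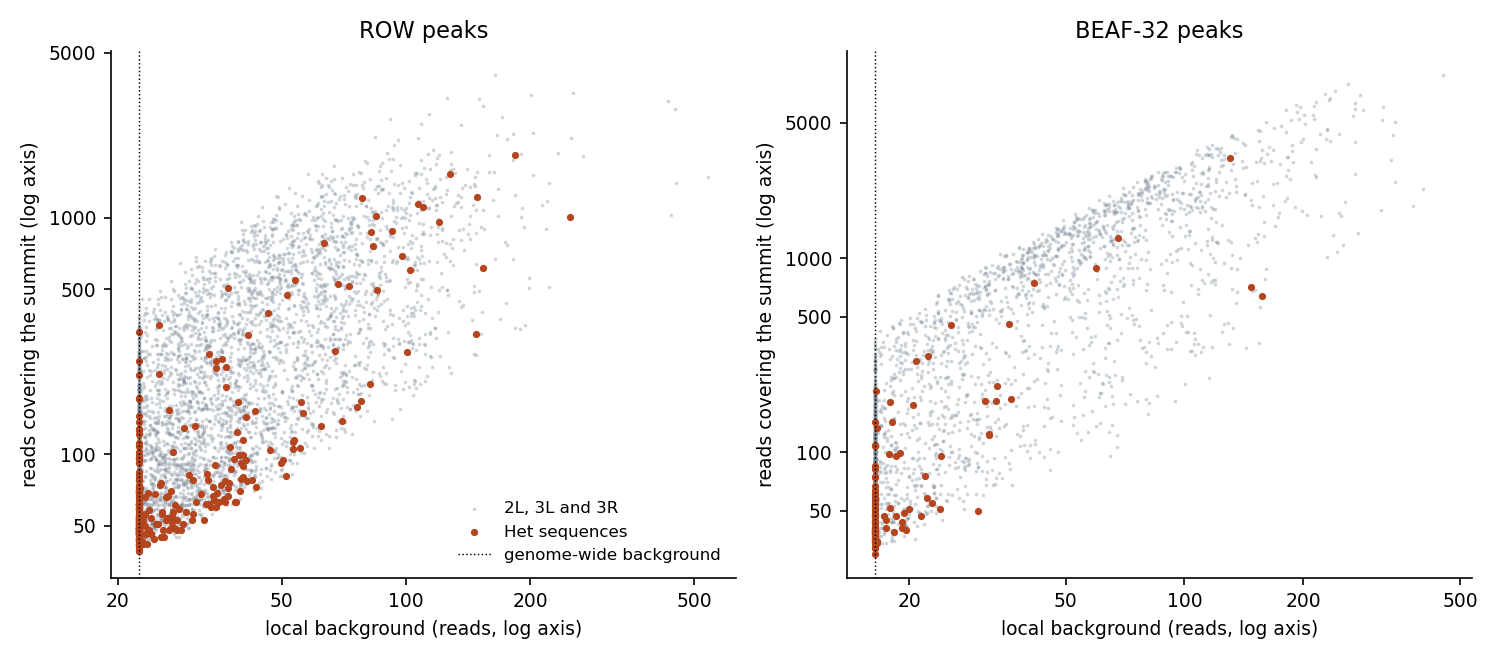
Reads covering the summit against local background in reads (both log axes) for ROW (left) and BEAF-32 (right), with Het peaks in red, peaks on 2L, 3L and 3R in grey, and the genome-wide background of 22.5 or 16.4 reads as a dotted line. Most Het peaks gather at the lower left, near the genome-wide background and with fewer than 100 reads, and a minority extends to high reads and high background.

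At matched strength the background of BEAF-32 kept this direction under 4-fold but not above. Raised background was found at 27.7% of Het and 41.2% of reference BEAF-32 peaks under 3-fold (65 Het peaks). From 3- to 4-fold the shares were 28.6% and 37.0% (14 Het peaks). They were 64.7% and 45.3% from 4- to 8-fold (17 Het peaks) and 87.5% and 73.0% from 8- to 16-fold (8 Het peaks). At 16-fold and over they were 100% and 97.9% (4 Het peaks). For ROW the Het share was lower in each range that held Het peaks, from 60.2% against 62.0% under 2-fold to 24% against 53.6% from 3- to 4-fold. These shares by strength were not tested. XHet was an exception for BEAF-32, since 3 of its 4 peaks had a raised background, up to 9.02 times the genome-wide level. At its strongest site the background was 131 reads for BEAF-32 and 25.3 for ROW. Local background rose with the summit reads. Their rank correlation for ROW was 0.54 on Het and 0.73 on the arms, and for BEAF-32 0.54 and 0.83. Whether signal near a peak raises its background was not tested. A minority of Het ROW peaks had many reads over a high background. Of the Het ROW peaks 20 lay between 8- and 16-fold, with a median of 770.5 summit reads over a background of 70.8. The 1044 reference ROW peaks in the same range had medians of 488.5 reads and 42.3. The largest number of Het ROW reads, 1851 over a background of 184, lay on 2RHet from 197563 to 198902, a peak named after its values were seen. Background reached 11.1 times the genome-wide level for ROW and 9.61 times for BEAF-32. Both maxima fell on a single site of 3RHet, which is described with the widths below. In the dense window of 3LHet from 2000001 to 2500000, 70.6% of ROW peaks had a raised background. Other windows varied, with 0 of 3 peaks on 3LHet from 1500001 to 2000000 and 50% of 16 on 3RHet from 2000001 to 2500000.

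Fewer ROW peaks overlapped BEAF-32 on Het sequences than on the arms, yet nearly all Het BEAF-32 peaks overlapped ROW. Of the Het ROW peaks 91 of 316 shared at least 1 bp with a BEAF-32 peak, or 28.8% (24.1 to 34.0), against 44.3% of reference peaks. The difference of −15.5 percentage points (−20.4 to −10.1) passed Fisher's exact test (adjusted p = 1.470e-07). Of the Het BEAF-32 peaks 97 of 108 overlapped ROW, or 89.8% (82.7 to 94.2), against 82.8% of reference peaks. This difference of 7.05 percentage points (−0.212 to 11.7) did not pass (Fisher's exact adjusted p = 0.0945). Its sign turned when sharing was defined by summits at most 100 bp apart (−6.04) or by 50% of both intervals (−9.60). By sequence, the shared portion of ROW peaks was 8 of 19 on 2LHet, 41 of 150 on 2RHet, 23 of 76 on 3LHet, 16 of 67 on 3RHet and 3 of 4 on XHet. The shared portion of BEAF-32 peaks was 8 of 9, 45 of 51, 25 of 28, 16 of 16 and 3 of 4 in the same order. A Het ROW peak without BEAF-32 was usually far from any: the median distance to the nearest BEAF-32 summit was 16851 bp, against 7011.5 bp for such ROW peaks on the arms. No BEAF-32 summit lay within 10 kb of 145 of the 225 unshared Het ROW peaks and of 1123 of the 2848 unshared reference ROW peaks. BEAF-32 peaks were also sparser on Het, at 12.6 per Mb against 36.7 on the arms. Whether the distances differ beyond that density was not tested.

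The direction of the ROW difference depended on strength. Among ROW peaks of at least 4-fold, 74.5% of 55 Het peaks overlapped BEAF-32, against 58.5% of 2634 reference peaks. This difference of 16 percentage points (3.02 to 25.8) passed Fisher's exact test (adjusted p = 0.0364, not adjusted over the settings tried). Under 4-fold the shares were 19.2% of 261 Het peaks and 29.2% of 2481 reference peaks, a difference of −10.1 percentage points (−14.7 to −4.57, Fisher's exact adjusted p = 0.00125). The overlap was higher at each step of strength on Het: 9.09% under 2-fold, 19.6% from 2- to 3-fold, 52.0% from 3- to 4-fold, 65.7% from 4- to 8-fold and 90% (69.9 to 97.2) from 8- to 16-fold. On the arms the same steps gave 13.8%, 28.1%, 38.3%, 50% and 65.4%. Whether the slopes differ was not tested. Het ROW peaks under 3-fold were 236 of 316, or 74.7%, and such peaks were 32.8% of the reference.

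**Figure D3:**
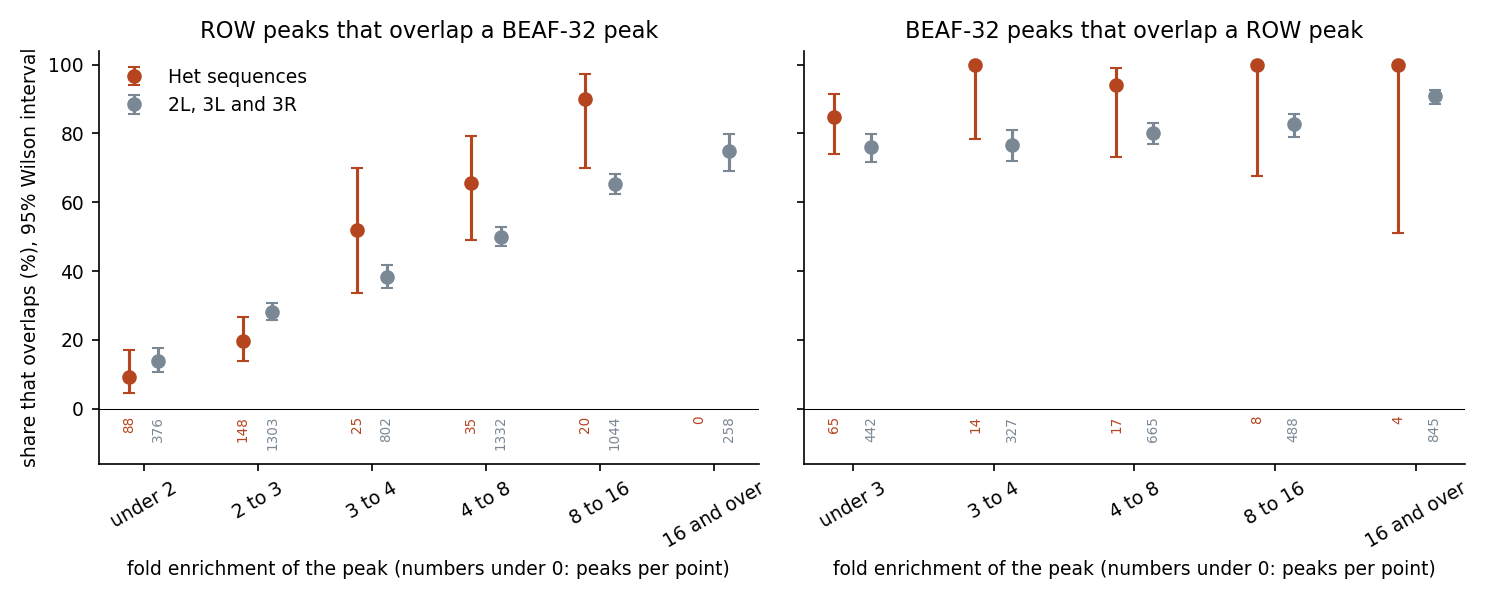
Share of ROW peaks that overlap BEAF-32 (left) and of BEAF-32 peaks that overlap ROW (right), in percent with 95% Wilson intervals, by fold enrichment, with Het sequences in red and 2L, 3L and 3R in grey and the number of peaks under each point. Het ROW peaks lie below the arms under 3-fold (9.09% and 19.6%) and above them from 3- to 16-fold (52.0% to 90%). Het BEAF-32 peaks lie at 84.6% or more in every range, and those on the arms at 76.0% to 90.8%.

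For BEAF-32 the overlap was high at every strength. Of the 65 Het BEAF-32 peaks under 3-fold 84.6% (73.9 to 91.4) overlapped ROW, against 76.0% on the arms. All 14 from 3- to 4-fold, 16 of 17 from 4- to 8-fold and all 12 of at least 8-fold did. On the arms 76.8% overlapped from 3- to 4-fold and 80.15% from 4- to 8-fold. The arms had 82.6% from 8- to 16-fold and 90.8% at 16-fold and over. Under 8-fold the Het share was 88.5% against 78.1% on the arms, a difference of 10.4 percentage points that passed Fisher's exact test (adjusted p = 0.0234). The median fold enrichment was 3.46 in shared Het ROW peaks, with 124 summit reads, and 2.12 in unshared ones, with 54. Shared Het BEAF-32 peaks had a median of 2.82-fold and unshared ones of 2.19-fold. The strongest unshared Het ROW peaks lay on 3LHet from 542231 to 542863 (9.26-fold, nearest BEAF-32 summit 31755 bp away) and on 2RHet from 2774476 to 2776129 (8.40-fold, 27248 bp away). The third was on 2RHet from 476925 to 477688 (7-fold, 5435 bp away). Among the 11 unshared Het BEAF-32 peaks, the one on XHet from 79680 to 80121 was the strongest. The next were at 2.76-fold on 2LHet from 198883 to 199176 and at 2.59-fold on 3LHet from 1752245 to 1753144.

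Overlapping pairs had a larger median summit distance on Het than on the arms. The pairs of 2RHet were the farthest apart among the 3 longest pieces. The 97 Het pairs had a median summit distance of 115 bp (interquartile range 59 to 248), and the 2300 reference pairs one of 84.5 bp (40 to 179). Summits lay within 100 bp in 46.4% (36.8 to 56.3) of Het pairs and in 57.4% of reference pairs. The difference of −11.0 percentage points (−20.8 to −0.921) did not pass (Fisher's exact adjusted p = 0.0602). Among the Het pieces it rested on 2RHet, where 15 of 45 pairs were within 100 bp at a median of 169 bp. Without 2RHet, 57.7% of 52 pairs were within 100 bp, a difference of 0.301 percentage points. With 2RHet kept, it was also absent among pairs whose peaks both reached a −log10 q of 10. There 61.0% of 41 Het pairs and 60.1% of reference pairs were within 100 bp, a difference of 0.879 percentage points. Medians were 91 bp on 3LHet and 72 bp on 3RHet. The closest pair lay on 2RHet, where ROW from 3176815 to 3180328 (4.03-fold) and BEAF-32 from 3178309 to 3179893 (17.56-fold) had summits 2 bp apart. Pairs 3 bp apart lay on 3RHet (ROW from 1953912 to 1954353, 4.16-fold, and BEAF-32 at 2.82-fold) and on 2LHet (ROW from 30893 to 31262, 2.17-fold, and BEAF-32 at 3.77-fold).

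**Figure D4:**
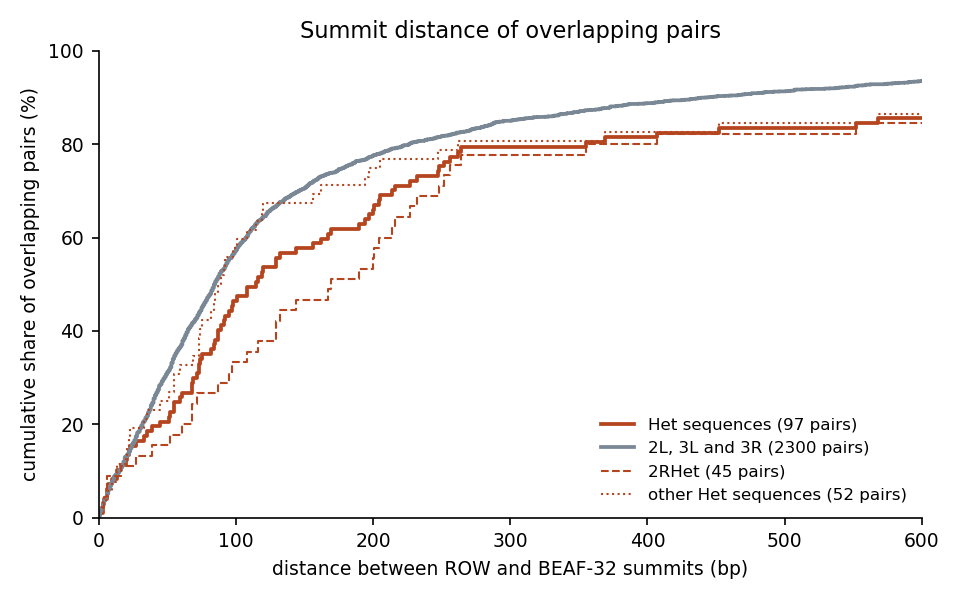
Cumulative share of overlapping pairs (percent) by the distance between ROW and BEAF-32 summits (bp, shown up to 600), for all Het pairs (solid red), 2RHet alone (dashed), the other Het sequences (dotted) and 2L, 3L and 3R (grey). The other Het sequences follow the reference up to about 100 bp (57.7% and 57.4% of pairs), whereas 2RHet reaches 33.3% there.

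In overlapping pairs on Het, strong ROW peaks went with strong BEAF-32 peaks. Across the 97 Het pairs Spearman's rank correlation between both fold enrichments was 0.66 and Pearson's r of their log2 values was 0.65. Across the 2300 reference pairs they were 0.15 and 0.15. It was also found off Het: the rank correlation was 0.72 across 123 pairs on the unplaced scaffolds U and Uextra and 0.43 across 67 pairs on chromosome 4. Among pairs with both peaks under 8-fold, the rank correlation was 0.42 in 73 Het pairs and 0.13 in 732 reference pairs. In the same range it was 0.77 on U and Uextra (79 pairs) and 0.58 on chromosome 4 (30 pairs). Pairs of a sequence share their libraries, their depth and their mappability, and the difference between these correlations was not tested. Summit reads of both proteins were related on Het as well (rank correlation 0.68), and so were their local backgrounds (rank correlation 0.64, against 0.30 on the arms). Whether the background contributes to the relation was not tested. The pairs that ranked best in both Het lists were on XHet (13.52-fold ROW, 24.82-fold BEAF-32, summits 84 bp apart), on 2RHet from 389996 to 391258 (10.67 and 18.57, 167 bp) and on 3RHet from 1823693 to 1824933 (12.21 and 13.58, 568 bp).

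**Figure D5:**
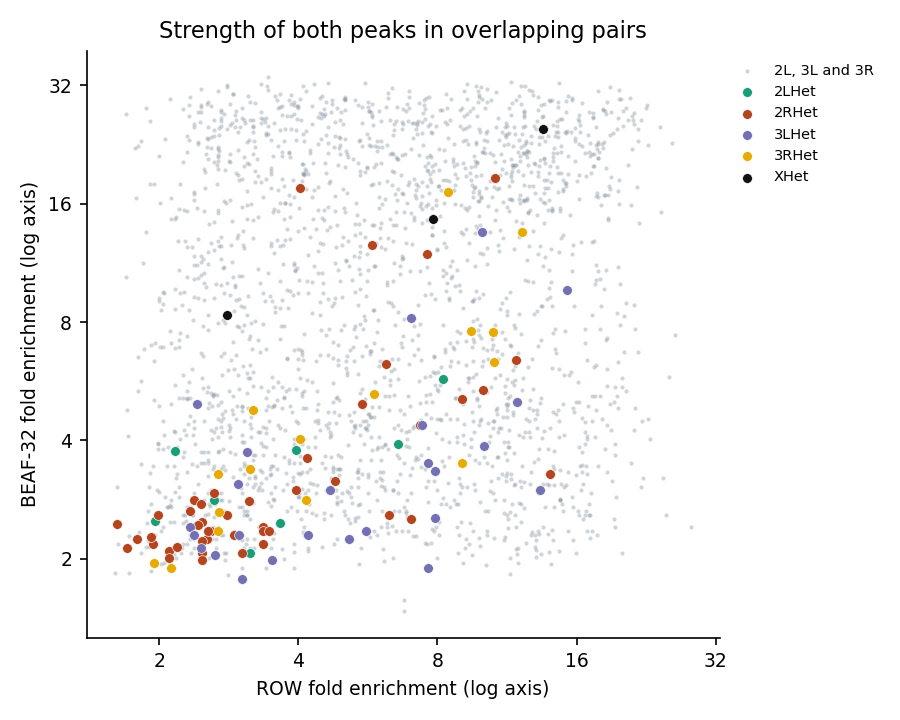
BEAF-32 against ROW fold enrichment (both log axes) of overlapping pairs, coloured by Het sequence, with pairs on 2L, 3L and 3R in grey. The 97 Het pairs run from the lower left to the upper right (rank correlation 0.66), and the 2300 reference pairs spread over the whole field (rank correlation 0.15).

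Het peaks were of ordinary median width with a broad upper tail. Median width was 579 bp for Het and 575 bp for reference ROW peaks, and 534.5 and 565 bp for BEAF-32. A width of at least 500 bp was found in 60.8% of Het and 61.9% of reference ROW peaks, a difference of −1.14 percentage points (−6.78 to 4.26, Fisher's exact adjusted p = 0.720). For BEAF-32 the shares were 54.6% and 62.6%, a difference of −7.93 points (−17.5 to 1.32, Fisher's exact adjusted p = 0.132). At the limit of 700 bp Het ROW peaks exceeded it more often, in 39.6% against 31.5% (8.02 points, Fisher's exact adjusted p = 0.00694). Where −log10 q reached 10, 87.6% of Het and 70.4% of reference ROW peaks were at least 500 bp (17.2 points, Fisher's exact adjusted p = 7.695e-05). Peaks of 1000 bp or more were 21.2% of Het and 12% of reference ROW peaks, and 15.7% and 4.95% of BEAF-32 peaks. On 2RHet 25.5% of BEAF-32 peaks were that wide. Wide peaks were also found off Het: on chromosome 4 they were 29.2% of ROW and 7.89% of BEAF-32 peaks. The median ROW width there was 733 bp, above that of Het. On U and Uextra peaks of 1000 bp or more were 10% of ROW and 11.9% of BEAF-32 peaks. These widths were not tested against Het. The widest Het peak was at 1 place in both lists, on 3RHet. ROW covered 3805 bp from 787852 to 791656 and BEAF-32 3860 bp from 787847 to 791706, both at 4.04-fold. This site also had the highest Het backgrounds of both lists, 249.9 reads for ROW and 158 for BEAF-32, with 1013 and 639 summit reads.

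Close neighbours within a list were more frequent among Het BEAF-32 peaks, at the distance chosen. Another BEAF-32 summit lay within 2000 bp of 25% (17.8 to 33.9) of Het BEAF-32 peaks and of 15.3% of reference peaks. The difference of 9.71 percentage points (2.37 to 18.7) passed Fisher's exact test (adjusted p = 0.0196). It did not pass without 2RHet (11.0 points) or without 3LHet (5.96 points), and within 5000 bp it turned to −6.45 points. Chromosome 4 had a higher share than Het, 42.1% (31.6 to 53.3) of 76 BEAF-32 peaks. On the unplaced scaffolds U and Uextra it was 10.4% (6.33 to 16.8) of 134, and neither was tested against Het. For ROW the shares within 2000 bp were 32.3% on Het and 28.8% on the arms. This was a difference of 3.50 points (−1.57 to 8.98, Fisher's exact adjusted p = 0.224). Within 5000 bp Het ROW peaks had a neighbour less often, in 54.1% against 62.9% (−8.78 points, Fisher's exact adjusted p = 0.00446). Runs with steps of at most 2000 bp were short: 8 runs of 3 ROW peaks and 3 runs of 3 BEAF-32 peaks were the longest on Het, whereas the arms had runs of up to 5 and 4. Runs of 3 or more held 7.59% of Het and 6.65% of reference ROW peaks. For BEAF-32 they held 8.33% (9 peaks) and 1.34%, a difference that was not tested. The longest ROW run lay on 2RHet from 2798535 to 2803059, at 1.94- to 2.63-fold. The longest BEAF-32 run lay on 2LHet from 30835 to 34905, at 3.77- to 5.75-fold, and all 3 of its peaks overlapped ROW.

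Chromosome 4 and the unplaced scaffolds U and Uextra were the sequences set beside the Het pieces. Against chromosome 4, which is largely packed as heterochromatin, Het peaks were weaker. ROW peaks reached 4-fold in 33.6% of 137 cases there, and the Het share differed by −16.2 percentage points (−25.3 to −7.51, Fisher's exact p adjusted over 8 tests = 0.000579). BEAF-32 peaks reached 8-fold in 42.1% of 76 cases there, a difference of −31.0 points (−43.1 to −18.2, Fisher's exact adjusted p = 1.085e-05). ROW peaks of chromosome 4 overlapped BEAF-32 in 41.6% of cases, and the Het share differed by −12.8 points (−22.4 to −3.33, Fisher's exact adjusted p = 0.0178). With neighbours joined this last difference did not pass, and in peaks whose −log10 q reached 10 neither difference in strength passed. On U and Uextra 43.3% of 330 ROW peaks reached 4-fold, more than on Het (−25.9 points, −32.5 to −19.0, Fisher's exact adjusted p = 6.178e-12). BEAF-32 peaks reached 8-fold in 18.7% of 134 cases there, a difference of −7.55 points (−16.3 to 1.72, Fisher's exact adjusted p = 0.147). Overlap with ROW was found for 88.2% of BEAF-32 peaks on chromosome 4 and 91.8% on U and Uextra. The Het share differed from these by 1.66 points (−7.34 to 11.8) and −1.98 points (−9.95 to 5.38), and neither difference passed. ROW overlap with BEAF-32 on U and Uextra was 36.7%, a difference of −7.87 points (−15.0 to −0.626, Fisher's exact adjusted p = 0.0580). Median summit distance in overlapping pairs was 112 bp on chromosome 4 and 17 bp on U and Uextra, beside 115 bp on Het. Local background was raised at 74.5% of ROW and 71.1% of BEAF-32 peaks of chromosome 4, and at 17.9% and 16.4% on U and Uextra. The Het shares of 46.5% and 40.7% lay between these, and the difference was not tested.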

How the data were processed

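ChIP-seq was done on S2 cells with 3 samples per antibody. Groups follow the sample titles, since for BEAF-32 the antibody field changes its number from sample to sample. The authors deposited 1 headerless narrowPeak list per antibody. Bowtie2, SAMtools, MACS2, deepTools and dm3 are named in the submitters' processing notes without versions or roles. Pooling and control are not given in the sources used here. Column 7 as deposited is the fold ratio, columns 8 and 9 as deposited are −log10 p and −log10 q of a peak, and the display score deposited in column 5 was not used. The smallest −log10 q was 1.47 (ROW) and 1.32 (BEAF-32). Coordinates count from 1.

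In a step added after the data were seen, whole summit reads k and background b were solved from (k + 1)/(b + 1) equal to the fold and P(X > k) of a Poisson law with mean b equal to p. Recovery, overlap and tests were checked on simulated data. Intervals and floors cover counting error only. Members, lists, thresholds and tests were chosen with earlier results of these data known. Named peaks follow a rule: the 5 strongest per list, the strongest per sequence, the 3 closest and 3 best-ranked pairs, the 3 strongest unshared, the widest, the longest runs and the longest stretch without peaks. Other settings are given in the closing section. Python 3.11.15, numpy 2.4.6, pandas 2.3.3, scipy 1.17.1 and matplotlib 3.10.9 were used.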

Additional observations from a re-analysis of the deposited data

How the results depend on the processing

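No paired analysis was possible because the 3 samples of an antibody share 1 list, and leaving out a sample was not possible either. Of 172 recalculations of 20 results, 136 had the same sign and the same call, and 36 of the 172 were added after the data were seen. The ROW share of all peaks (8.13 to 11.1 percentage points), ROW of at least 4-fold (−41.9 to −19.1) and BEAF-32 of at least 8-fold (−45.4 to −26.8) kept both under every setting run. The lower ROW overlap did so in 15 of 16, and turned to 16 among ROW peaks of at least 4-fold. The exceptions follow as Het minus reference in percentage points, and the cause was not tested for any. Their calls were not adjusted over the settings. BEAF-32 overlap passed with all arms as reference (8.93), with −log10 q of at least 10 (18) and under 8-fold (10.4), and turned with summits at most 100 bp apart (−6.04) and 50% of both intervals (−9.60). Summits within 100 bp passed against 3R alone (−12.8), without 3LHet (−15.7), without 3RHet (−14.2) and at 200 bp (−11.6), and turned with −log10 q of at least 10 (0.879) and without 2RHet (0.301). ROW width turned with −log10 q of at least 10 (17.2), without 3RHet (2.36) and at 700 bp (8.02). BEAF-32 width passed against 3R alone (−11.6) and with neighbours joined (−12.9), and turned with −log10 q of at least 10 (1.38) and at 700 bp (7.34). ROW spacing turned with −log10 q of at least 10 (−2.88), without 2RHet (−2.27) and at 5000 bp (−8.78). BEAF-32 spacing did not pass against 2L (6.99) or 3L (7.85) alone, with −log10 q of at least 10 (3.75), without 2RHet (11.0), without 3LHet (5.96) or at 1000 bp (3.81), and turned at 5000 bp (−6.45). Spacing has no value with neighbours joined. Raised background of BEAF-32 did not pass with −log10 q of at least 10 (−9.47). Against chromosome 4 with −log10 q of at least 10, ROW (−15.9) and BEAF-32 (−22.9) strength did not pass, nor did ROW overlap with neighbours joined (−11.6). Against U and Uextra, BEAF-32 overlap turned with −log10 q of at least 10 (3.68) and with neighbours joined (0.420), and BEAF-32 strength with −log10 q of at least 10 (1.87). Depth limits single peaks: a median Het peak rests on 62 (ROW) or 48.5 (BEAF-32) reads.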
